A study of Bos taurus with 7 samples.

Results

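The red-cell microRNAs (miRNAs) miR-451, miR-486 and miR-144 were followed in the plasma of 7 Japanese-Black cows. They were taken by name from the array's annotation, and 3 of the 744 bovine miRNAs on the array matched (bta-miR-451, bta-miR-486 and bta-miR-144, each with 2 probes and 10 spots per probe). All cows had controlled estrus and artificial insemination, and blood was drawn on day 21 after it, day 0 being the insemination. Of the 7 cows, 4 were labelled pregnant (pregnant 1 to 4) and 3 non-pregnant (non-pregnant 1, 3 and 4). Each cow was a separate animal on its own Cy3 microarray. The design compares circulating miRNAs between the groups. The age of the cows and any measure of haemolysis are not given in the sources used here.

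A miRNA is a short RNA that lowers the output of messenger RNAs to which its 5′ end pairs. miR-144 and miR-451 are cut from a single primary transcript that the factor GATA1 turns on during red-cell formation, and miR-451 is unusual in being matured by Argonaute 2 without Dicer. miR-486 lies within ANK1, which encodes a protein of the red-cell membrane skeleton. Mature red cells carry much miR-451 and miR-486, so their plasma levels are widely used as a sign of red-cell lysis in the blood tube. In bulk plasma, more lysed red cells and more miRNA per red cell cannot be told apart.

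The 6 probes are shown because the results for miR-451 turn on a single base. Each is written 5′ to 3′, and the capital marks the base at the 3′ end that the longer probe of a pair has and the shorter lacks.
bta-miR-451, shorter probe: aaactcagtaatggtaac
bta-miR-451, longer probe: aaactcagtaatggtaacG
bta-miR-486, shorter probe: ctcggggcagctc
bta-miR-486, longer probe: ctcggggcagctcA
bta-miR-144, shorter probe: ctagtacatcatctatactgt
bta-miR-144, longer probe: ctagtacatcatctatactgtA

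The array's annotation places the longer miR-451 probe at chr19:20796880-20796897 and the longer miR-144 probe at chr19:20797072-20797092 of the bovine assembly UMD 3.1 (bosTau6). The longer miR-486 probe is at chr27:36261858-36261870. Each span is listed from the higher to the lower coordinate. The listed spans are 1 base shorter than the sequences, as they are for all 1268 probes with a single listed span. The miR-144 and miR-451 spans lie 174 bases apart. In the RefSeq gene table for ARS-UCD2.0, MIR144 and MIR451 are neighbours on chromosome 19 and overlap no other gene, while MIR486 overlaps ANK1 on chromosome 27. The miR-486 probes are 13 and 14 bases long with 76.9% and 71.4% G and C. The miR-451 probes have 18 and 19 bases with 33.3% and 36.8%, and the miR-144 probes have 21 and 22 bases with 33.3% and 31.8%.

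miR-451 and miR-486 were called detected by the scanner software on all 7 arrays, and miR-144 on none. Over the arrays, 45 to 101 miRNAs were detected, with 40 found on all 7. The summed signal of detected miRNAs ran from 12010 to 101001 intensity units. All arrays were on 1 slide with 1 scan day. Slide row 1 held the pregnant and slide row 2 the non-pregnant arrays, and an effect of the row cannot be told apart from that of the group.

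The signal of miR-451, summed by the software over its probes and not scaled between arrays, was 11.2 ± 1.55, 25.1 ± 2.90, 11.3 ± 1.76 and 14.1 ± 2.23 intensity units in pregnant 1 to 4 (± the software's error). In non-pregnant 1, 3 and 4 it was 5.07 ± 1.33, 12.1 ± 1.61 and 4.28 ± 1.33. Pregnant 2 stood highest and non-pregnant 4 lowest. The groups overlapped, since non-pregnant 3 exceeded pregnant 1 and pregnant 3, and 2 of 4 pregnant cows lay above every non-pregnant cow. The pregnant group averaged 15.4 ± 6.59 (SD, n = 4) and the non-pregnant group 7.16 ± 4.32 (SD, n = 3). miR-451 took between 0.00734% (non-pregnant 4) and 0.0730% (pregnant 2) of the detected signal of an array.

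For miR-486 the signal was 35.7 ± 3.02, 50.6 ± 4.20, 57.2 ± 4.58 and 38.1 ± 3.56 intensity units in pregnant 1 to 4. It was 18.5 ± 2.22, 52.1 ± 4.07 and 28.9 ± 2.76 in non-pregnant 1, 3 and 4. Pregnant 3 was the highest cow and non-pregnant 1 the lowest, 3.09-fold apart. The groups overlapped again, with 1 of 4 pregnant cows above non-pregnant 3. The group means were 45.4 ± 10.2 (SD, n = 4) and 33.2 ± 17.2 (SD, n = 3). Of the 88 miRNAs detected on at least 3 arrays, 13 (14.8%) had every pregnant cow above every non-pregnant cow in this unscaled signal, and neither miR-451 nor miR-486 was among them. The share of miR-486 in the detected signal ran from 0.0495% (non-pregnant 4) to 0.161% (pregnant 4).

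**Figure D1:**
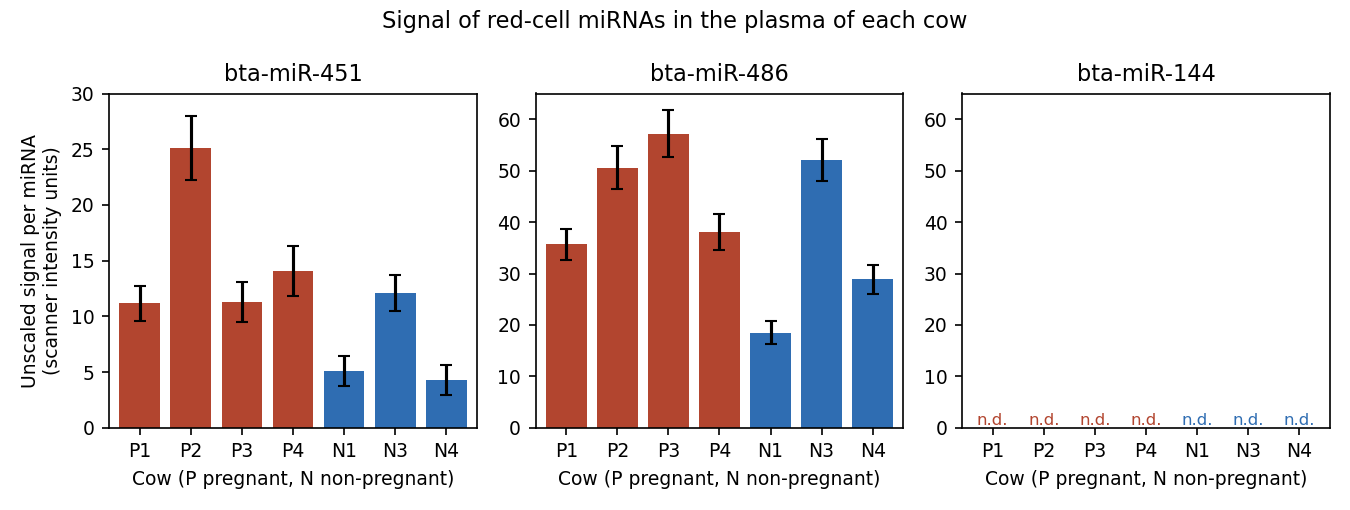
Signal per miRNA in scanner intensity units, unscaled, for each cow (P pregnant, N non-pregnant). Bars show the software's signal and its error, and n.d. marks a miRNA not called detected. miR-451 was highest in pregnant 2 (25.1), miR-486 in pregnant 3 (57.2), and miR-144 was detected in no cow.

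miR-144, which shares its primary transcript with miR-451, was not above background in any cow. None of its 20 spots per array was well above background, the software's flag for a spot that clearly exceeds the local background. The mean signal of its shorter probe lay between -3.85 and 1.29 intensity units, and that of its longer probe between -2.42 and 2.24. The lowest mean of any probe with over 50% of its spots well above background was 7.36 to 10.05 units per array. miR-144 was therefore below the range that these arrays measured, and no difference between the groups is given for it.

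All of the miR-451 signal came from its longer probe. The shorter probe had 0 of 10 spots well above background on every array, with means from -2.38 to -0.17 intensity units. The longer probe gave means of 16.8, 37.8, 17.0 and 21.2 units in pregnant 1 to 4, with 9, 10, 8 and 8 of 10 spots well above background. In non-pregnant 1, 3 and 4 it gave 7.64, 18.3 and 6.46 units, with 1, 9 and 3 spots. By that flag, with over 50% of spots required, miR-451 exceeded background in all 4 pregnant cows but in only 1 of the 3 non-pregnant cows, although the software called it detected in all 7. The pregnant arrays had 90 to 101 miRNAs detected, and non-pregnant 1, 3 and 4 had 45, 84 and 81. How many other miRNAs had the pattern of miR-451 was not counted, so it cannot be called particular to miR-451. The miR-451 signal in non-pregnant 1 and 4 was 3.81 and 3.23 times its own error, against 6.31 to 8.66 times in the other 5 cows.

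Both miR-486 probes, which also differ by a single base, were above background. The shorter probe had 10, 10, 10 and 7 of 10 spots well above background in pregnant 1 to 4, and 5, 10 and 8 in non-pregnant 1, 3 and 4. The longer probe had 8 to 10 spots in every cow. The log2 ratio of the longer over the shorter miR-486 probe averaged 0.99 ± 0.20 (SD, n = 4) in the pregnant and 0.95 ± 0.21 (SD, n = 3) in the non-pregnant group, so the pair kept nearly the same ratio from cow to cow. A pair with a silent partner was not rare on the array. Among 87 miRNAs with 2 probes of which at least 1 was above background on an array, the other probe was above background on no array for 33 (37.9%). Among the 54 with a probe above background on at least 5 arrays, miR-451 was 1 of 11 with such a silent partner.

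**Figure D2:**
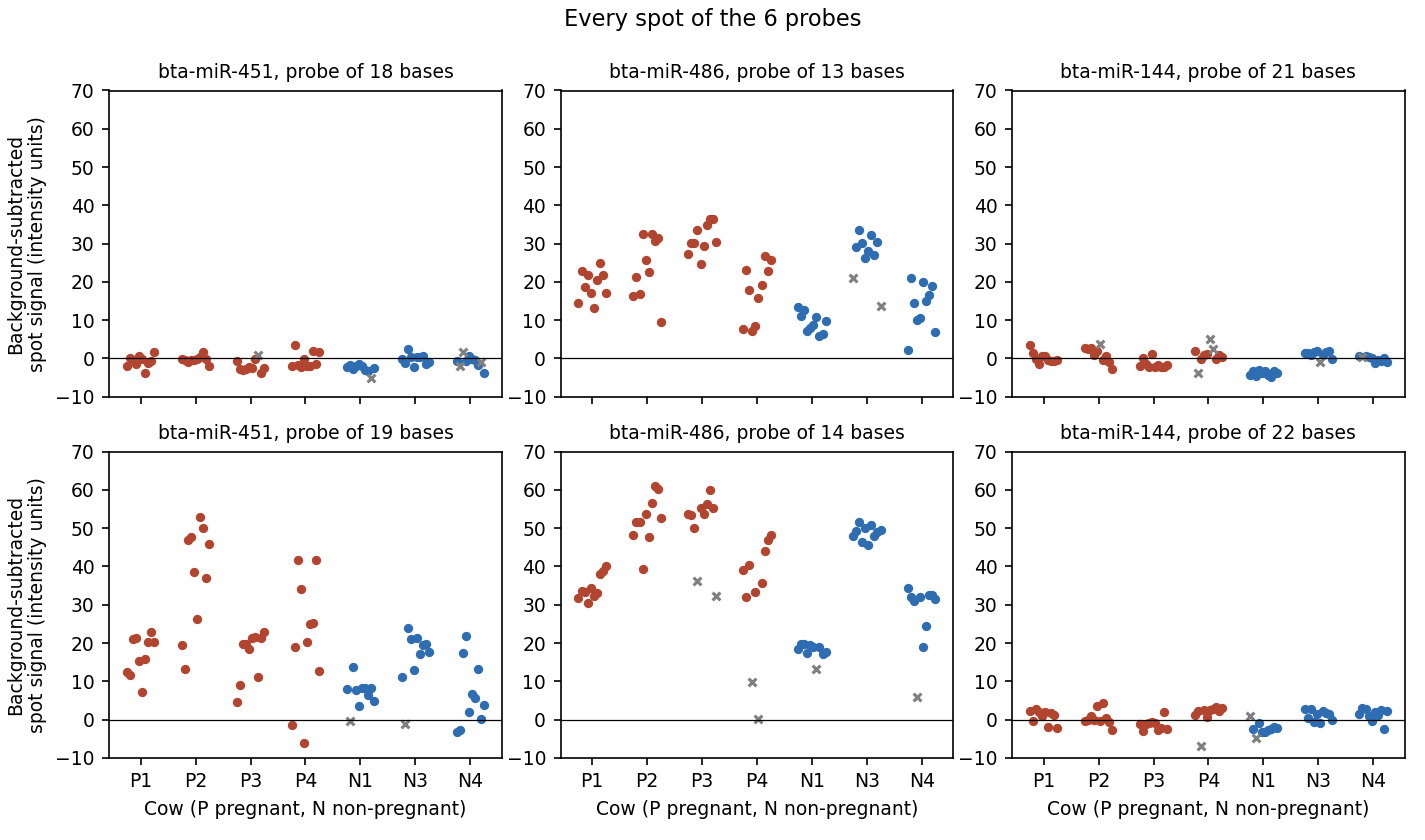
Background-subtracted signal of every spot (intensity units) of the 6 probes, by cow (P pregnant, N non-pregnant). Crosses are spots the software flagged as outliers. The shorter miR-451 probe and both miR-144 probes lie around 0 in all 7 cows, and the longer miR-451 probe spreads widely within pregnant 4 and non-pregnant 4.

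The spots of the longer miR-451 probe disagreed most in the cows numbered 4. Their coefficient of variation was 22.2% to 37.3% in pregnant 1 to 3 and non-pregnant 3 and 76.4% in pregnant 4, where single spots ran from -6.02 to 41.6 units. In non-pregnant 4 the spots ran from -3.32 to 21.9 units. The 2 spots in the right-hand columns of the array (above column 74) had a mean of -3.72 against 27.5 for the other spots in pregnant 4, and of -0.67 against 8.24 in non-pregnant 4. For the longer miR-486 probe, its 2 edge spots gave 4.95 against 40.0 in pregnant 4 and 12.5 against 31.3 in non-pregnant 4 (spots flagged as outliers included). Over the 57 probes above background on all arrays, edge spots differed from the rest by a median log2 of -0.99 in pregnant 4 and -0.41 in non-pregnant 4, and by -0.084 to -0.038 in the other cows. Both arrays lay in slide column 4. Without the edge spots the group differences given below moved little, to log2 0.39 for miR-451 and 0.24 for miR-486. This comparison has limits, since the 2 edge spots of the longer miR-486 probe in pregnant 4 were already left out as outliers. The miR-451 level also averages in its shorter probe, which was above background in no cow.

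The log2 ratio of the miR-451 over the miR-486 signal within an array was -1.68 ± 0.23, -1.01 ± 0.21, -2.34 ± 0.25 and -1.44 ± 0.27 in pregnant 1 to 4 (± error propagated from the software's errors). In non-pregnant 1, 3 and 4 it was -1.87 ± 0.42, -2.10 ± 0.22 and -2.75 ± 0.47. The ratio was highest in pregnant 2 and lowest in non-pregnant 4, where 3 of 10 spots of the longer miR-451 probe were well above background. In pregnant 4 and non-pregnant 4 the edge spots of that probe carried no outlier flag. Low edge spots of the longer miR-486 probe were flagged there (9.81 and 0.09 units in pregnant 4, 5.92 in non-pregnant 4). The effect of this on the ratio was not tested. The spread of this ratio between cows was not tested. The group means were -1.62 ± 0.56 (SD, n = 4) and -2.24 ± 0.46 (SD, n = 3), and the groups overlapped. The ratio needs no scaling between arrays.

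To compare cows, each array was divided by its 75th percentile over the 57 probes above background on all arrays, which ran from 172 in non-pregnant 1 to 1645 in pregnant 3. Scaled values under a common floor (log2 -6.36) were set to it, and a miRNA's level is the mean of its 2 probes on the log2 scale. The level of miR-451 was -5.77, -4.96, -6.36 and -5.33 in pregnant 1 to 4, and -5.43, -6.11 and -6.36 in non-pregnant 1, 3 and 4. Pregnant 3 and non-pregnant 4 were thus at the floor, pregnant 3 although 8 of 10 spots of its longer probe were well above background. The level of miR-486 was -4.55, -3.64, -5.31 and -3.97 in pregnant 1 to 4, and -3.71, -4.79 and -5.35 in non-pregnant 1, 3 and 4.

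The order of the cows depended on this scaling. For miR-486, pregnant 3 had the highest unscaled signal and the second lowest scaled level, and non-pregnant 1 the lowest signal and the second highest level. For miR-451, non-pregnant 1 had the second lowest signal and the third highest level. That level rests on a longer-probe mean of 7.64 units, with 1 of 10 spots well above background. The lowest probe above background on that array was at 8.93 units. Pregnant 3, at 17.0 units with 8 of 10 spots, was at the floor, its divisor being 1645 against 172 in non-pregnant 1. Pregnant 2 was highest in miR-451 on both scales.

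**Figure D3:**
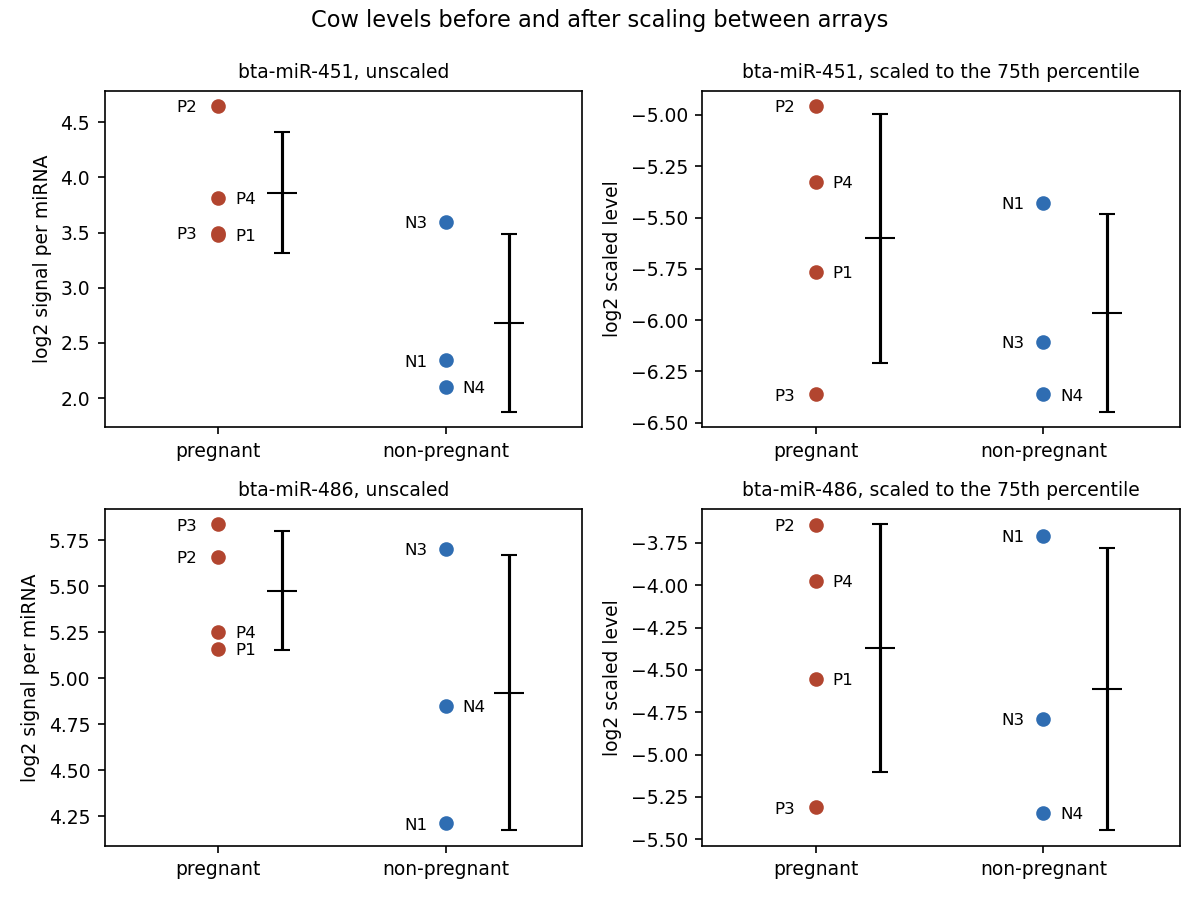
Levels of miR-451 (top) and miR-486 (bottom) in each cow as log2 signal per miRNA without scaling (left) and as log2 level scaled to the array's 75th percentile (right). Bars show group mean and SD (n = 4 and n = 3). The groups overlap in all 4 panels, and for miR-486 scaling moves pregnant 3 from the top of the order to near its bottom and non-pregnant 1 the other way.

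No difference between pregnant and non-pregnant cows passed the test for either detected member. The scaled level of miR-451 was -5.60 ± 0.61 (SD, n = 4) in the pregnant and -5.96 ± 0.48 (SD, n = 3) in the non-pregnant group. These differ by log2 0.36, its standard error being 0.39, with a 95% interval from -0.58 to 1.30 (limma, two-sided, Benjamini-Hochberg adjusted p = 0.772). For miR-486 the levels were -4.37 ± 0.73 (SD, n = 4) and -4.61 ± 0.83 (SD, n = 3), differing by 0.24, its standard error being 0.53, with an interval from -1.05 to 1.53 (limma adjusted p = 0.934). Both intervals include 0 and a change of log2 1 upwards, and that of miR-486 also includes a change of log2 1 downwards. The miR-451 interval is narrowed by its shorter probe, which was at the floor in every cow. With the longer probe alone the standard error was 0.76, so a change of log2 1 downwards is not excluded for miR-451 either. limma called 0 of the 88 tested miRNAs (0% at the adjusted threshold of 0.05), and 1 (1.14%) had an unadjusted p under 0.05. In a test of each miRNA by exact permutation, 0 passed at an unadjusted p under 0.05. Both member differences were positive, as were 62 of the 88 (70.5%), whose median difference was 0.18.

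Because the silent shorter probe sat at the floor in every cow, its difference is 0 by construction and the mean over the miR-451 probes is pulled towards 0. With only probes above background on at least 1 array kept, a choice made with the data in view, the level of miR-451 rested on its longer probe. That level was -5.17, -3.55, -6.36 and -4.29 in pregnant 1 to 4, and -4.49, -5.85 and -6.36 in non-pregnant 1, 3 and 4. The difference became log2 0.73 with a standard error of 0.76 (limma adjusted p = 0.764), and the standard error grew with it. In the authors' deposited value table, which is not scaled between arrays, the difference of miR-451 was 1.18 with a standard error of 0.65 (limma adjusted p = 0.702). That of miR-486 in the same table was 0.56 with a standard error of 0.65 (limma adjusted p = 0.906).

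The sign of the miR-486 difference was not stable. It was -0.065 with quantile normalization, -0.079 with normexp background correction (a model of background that added an offset of 50 to each spot), -0.071 with the software's signal per miRNA scaled in the same way, and -0.12 without non-pregnant 4. Without non-pregnant 1 it was 0.70, without pregnant 3 0.56, without non-pregnant 3 0.16, without pregnant 4 0.11 and without pregnant 2 0.0010. For miR-451 normexp gave -0.16, and leaving out an array gave values from 0.15 (without pregnant 2) to 0.63 (without non-pregnant 1), with 0.62 without pregnant 3 and 0.16 without non-pregnant 4. Under normexp the median of all 88 differences was -0.19, with 9.09% positive, and both members lay above that median. The offset of 50 exceeded the mean of every member probe except the longer miR-486 probe in pregnant 2 and 3 (52.3 and 54.8 units). This setting therefore says little about the sign for the members. No setting brought either member past the threshold, with limma adjusted p from 0.321 to 0.967 for miR-451 and from 0.562 to 1 for miR-486.

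**Figure D4:**
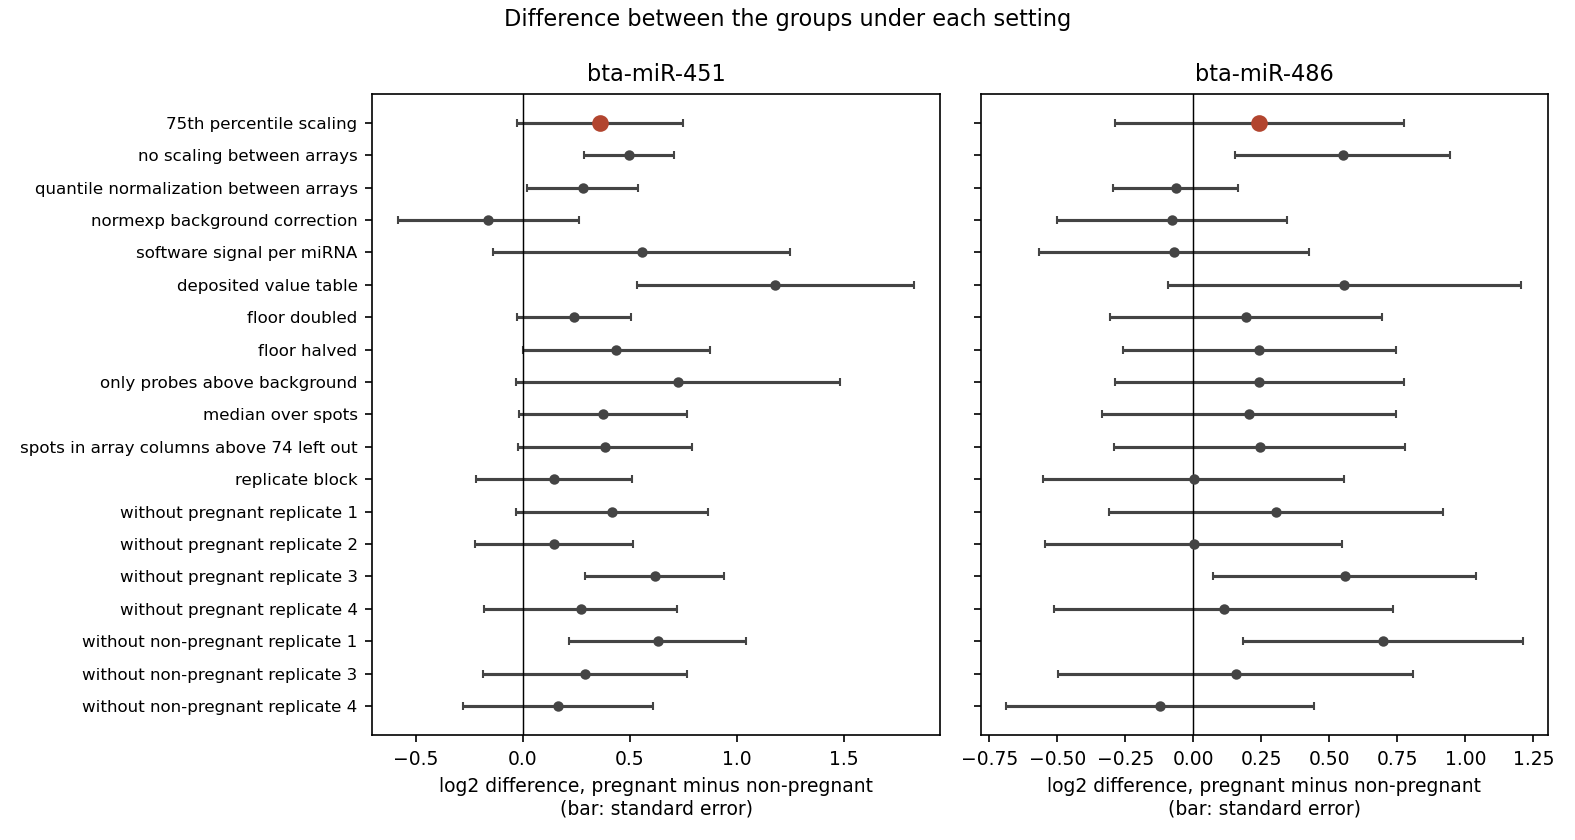
log2 difference (pregnant minus non-pregnant) of miR-451 and miR-486 under each setting, with its standard error. The red point is the difference with scaling to the 75th percentile (0.36 and 0.24). The miR-451 value lies below 0 only with normexp (-0.16) and the miR-486 value in 4 settings.

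miR-223, a miRNA of myeloid blood cells, served as a reference from another blood source. Its unscaled signal was 123, 369, 240.2 and 357 units in pregnant 1 to 4, and 55.9, 96.5 and 152 in non-pregnant 1, 3 and 4. The scaled level of miR-223 differed by log2 1.13, its standard error being 0.80 (limma adjusted p = 0.743). The scaled differences of miR-451 and miR-486 were also positive but smaller (0.36 and 0.24). The negative ratio differences below thus come from miR-223 and do not show lower miR-451 or miR-486 in pregnant cows. The log2 ratio of miR-451 to miR-223 was -3.59 ± 0.79 (SD, n = 4) in the pregnant and -2.82 ± 0.64 (SD, n = 3) in the non-pregnant group, a difference of -0.77 (two-sided exact permutation p = 0.286 over the 35 splits of 7 cows, and 0.286 after Benjamini-Hochberg adjustment over the 2 ratios; the smallest possible p was 0.0286). The ratio of miR-486 to miR-223 was -2.36 ± 0.68 (SD, n = 4) and -1.47 ± 0.72 (SD, n = 3), a difference of -0.89 (exact permutation p = 0.2, adjusted p = 0.286). Neither ratio passed the test, and the groups overlapped in both. The floor enters the first ratio in every cow through the shorter miR-451 probe, and in pregnant 3 and non-pregnant 4 through both miR-451 probes. In the deposited table, which has no floor, the difference of this ratio was -0.24 (exact permutation, adjusted p = 0.8), and with the longer miR-451 probe alone -0.41 (adjusted p = 0.371). Without non-pregnant 3 it was -0.40 and without pregnant 4 -0.48. The ratio of miR-486 ran from -1.26 (without non-pregnant 4) to -0.54 (without non-pregnant 3).

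The ratio of miR-451 to miR-23a, a common index of haemolysis in which miR-23a is the stable partner, could not be formed. miR-23a was called detected in all 4 pregnant cows and 1 of the 3 non-pregnant cows, but reached well above background in 1 and 0 of them. Its signal was 4.62, 13.0, 6.11 and 6.72 units in pregnant 1 to 4 and 4.51 in non-pregnant 3.

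Other miRNAs abundant in red cells were seen in part. Of 16 listed ones, all on the array, 10 were found on some array, 6 entered the test, and limma called 0 of them. miR-92a and miR-25 were above background in all 7 cows, and miR-16b and miR-15a, which restrain the cell cycle and BCL2, in all 4 pregnant cows and in 2 of the 3 non-pregnant ones. miR-92b, miR-363, miR-182, miR-183, miR-96 and miR-103 were detected on no array. All 6 tested differences were positive, with a median of 0.50 against 0.18 over all 88 tested miRNAs, but 0 of 6 were positive with normexp, which moved the median of all 88 to -0.19. In all 3 non-pregnant cows miR-15b and miR-106b sat on the floor, which left no room for a negative difference. The filter of 3 arrays was met by miR-16b, miR-15a, miR-15b and miR-106b only with the pregnant arrays. Each was detected in 4 pregnant cows, but in only 2, 2, 2 and 1 of the 3 non-pregnant cows. The shared sign is therefore partly set by the filter. The largest of the 6 differences were those of miR-25 (0.64, standard error 0.44) and miR-106b (0.61, standard error 0.38).

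The unscaled signal of each of these 6 overlapped between the groups, as did that of miR-451 and miR-486. miR-25 came close, at 23.4, 42.2, 42.9 and 36.8 units in pregnant 1 to 4 against 8.65, 23.5 and 14.4 in non-pregnant 1, 3 and 4. The summed signal of the 16 ran from 117 to 184 units in pregnant and from 37.3 to 111 in non-pregnant cows. Its ranges did not overlap, while those of the members did (46.9 to 75.7 against 23.6 to 64.2). Single miRNAs with every pregnant cow above every non-pregnant cow in the unscaled signal made up 13 of the 88 tested (14.8%). The summed signal of the 8 listed leukocyte miRNAs, 3 of them detected, was 143 to 423 units in pregnant and 55.9 to 170 in non-pregnant cows. miR-142-3p, miR-155, miR-146a, miR-146b and miR-181a of that list were detected on no array. For the 7 listed platelet miRNAs, with miR-126 as its arms miR-126-3p and miR-126-5p, 4 of the 8 names were detected. The platelet sum was 64.97 to 103.2 against 30.6 to 61.6, also without overlap. Most of it was miR-24-3p, at 57.0, 74.8, 60.5 and 88.7 units in pregnant 1 to 4 and 23.8, 34.9 and 52.2 in non-pregnant 1, 3 and 4. miR-24-3p is among the 13 single miRNAs above. miR-197, the other platelet miRNA that was tested, overlapped between the groups, with a scaled log2 difference of -0.17. miR-126-3p was detected in pregnant 4 alone, and miR-199a-3p in non-pregnant 4 alone. miR-126-5p, miR-21-5p, miR-191 and miR-199a-5p were detected on no array. For the 4 liver miRNAs, 3 detected, the sum was 10.03 to 51.2 against 3.26 to 26.1, with miR-194 not detected. The ranges of the leukocyte and of the liver sums overlapped. The part of these cell types in the red-cell signals was not tested.

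The miRNAs whose scaled pattern was most like that of miR-451 were ranked by the SD over the 7 cows of the log2 difference to it, among the 39 others detected on every array. miR-29a, which represses collagen genes, came first (SD 0.15), then miR-25 (0.22), miR-486 (0.23), miR-423-5p (0.24) and miR-2478 (0.31). For miR-486 the nearest were miR-451 (0.23), miR-92a (0.33), miR-29a (0.35), miR-25 (0.36) and miR-1246 (0.37). Since the silent probe flattens miR-451, the ranking was repeated, with the data in view, for probes above background only. miR-486 was then the nearest to miR-451 (SD 0.44), but by a small margin. miR-25 (0.49), miR-19b (0.50), miR-20a (0.51), miR-24-3p (0.53) and miR-223 (0.58) followed. All these levels share the floor and the divisor of the array.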

How the data were processed

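Plasma RNA (serum and plasma kit, 50 ng labelled with Cy3, per the labels' protocols) was hybridised to 1-colour arrays read with Agilent Feature Extraction 11.0.1.1, per the file headers. Spot intensity, as deposited, had its background subtracted array by array, with no scaling across arrays. The authors' second file gives the log2 signal of each miRNA, blank where undetected; the sources used here do not name its additive constant. The deposited detection and outlier flags (0 or 1) were used as given, and control and outlier spots (558 to 1149 per array) were left out. For the floor, each array's lowest scaled value of a probe above background was taken, then the median of these. miRNAs detected on at least 3 arrays were tested with limma 3.58.1 in R 4.3.3, with no covariate and a Benjamini-Hochberg threshold of 0.05, and the fit was tested on simulated data. The number of arrays limits the precision.

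The members and lists were chosen with earlier results of these data known. The named miRNAs are the members, tested members of the red-cell list, miR-223, miR-23a and the 5 nearest patterns of each detected member. Other miRNAs of the red-cell, leukocyte, platelet and liver lists are named where their detection or signal is given. Cow numbers were shared between groups but name different animals. Mature miRNA sequences were not used here. Alternatives concerned scaling, background correction, probe summary, floor, filter, test, a block on cow number and the removal of single arrays.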

Additional observations from a re-analysis of the deposited data

Results flagged for a closer look

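In a check of 17 values for a pregnant cow far from the other 3, 1 stood out, and chance flags about 1 in 20 groups. miR-92a was at a scaled log2 level of -4.69 in pregnant 3, against -3.77 to -3.68 in the other pregnant cows, a gap of 0.915 of the whole range. Its unscaled signal in pregnant 3, 99.3 units, was the highest of the 7 cows.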

How the results depend on the processing

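In each of the 22 settings run, of which the exact permutation test is 1 and the rest use limma, 0 miRNAs were called, with 0 to 11 at an unadjusted p under 0.05. With a smallest possible p of 0.0286, the exact permutation test could call miRNAs after adjustment only if many reached that p together. The miR-451 difference reversed with normexp (-0.16), which moved the median of all 88 tested miRNAs to -0.19. The miR-486 difference reversed with quantile normalization (-0.065), normexp (-0.079) and the software's signal per miRNA (-0.071). Leaving out single arrays gave 0.15 to 0.63 for miR-451 and -0.12 to 0.70 for miR-486. The causes were not tested. With the replicate block, miR-451 was at 0.15, miR-486 at 0.0010 and 0 miRNAs were called; cow 2 has no partner, so the block equals leaving out pregnant 2 for these differences. Deviations of same-numbered cows correlated at 0.094, 0.65 and -0.20 for numbers 1, 3 and 4. Each correlation rests on a single pair of arrays, so it cannot tell whether same-numbered arrays share an effect. Both ratios to miR-223 stayed negative in the 8 other settings (-0.89 to -0.24 for miR-451, -0.95 to -0.65 for miR-486) and, with an array left out, ran from -1.01 to -0.40 and from -1.26 to -0.54. Scaling to the 75th percentile over all probes was not run, because that percentile was -0.29 in non-pregnant 1. No value could be given for miR-144. The share of tested miRNAs with a positive difference was 70.5%, 86.4% without scaling, 44.3% with quantile normalization, 9.09% with normexp and 52.3% with the floor doubled.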
